A study of Mus musculus with 6 samples.

Results

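The Ccr7 dendritic cells of mouse pancreatic islets were described here from 6 droplet libraries (10x Genomics 3′ chemistry), with 3 libraries labelled WT and 3 labelled β14-3-3ζ–KO (KO). These cells were selected on measured values. A barcode was a member when it had at least 500 genes, at most 10% of its unique molecular identifiers (UMIs) on mt- genes, under 25% on Ins1 and Ins2, a UMI of at least 3 of the 6 genes Ccr7, Fscn1, Ccl22, Tbc1d4, Il4i1 and Flt3, and no UMI of Cd3e, Cd79a or C1qa. The rule found 205 members among 43445 barcodes, of which 12175 passed the filters on genes, mt- genes and insulin. KO mice carried the Ins1-CreThor driver, active in β cells, and Ywhaz alleles with LoxP sites around exon 4, and the WT littermates carried Cre with unmodified Ywhaz alleles. All mice were on a C57/BL6 background and 12 to 14 weeks old, and the islets had been kept overnight before dispersal, with dead cells removed. Nothing in the labels said whether a library held 1 mouse or a pool, so spread between libraries may not be spread between single mice.

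Dendritic cells take up antigen in a tissue, and on maturing they switch on Ccr7, the receptor for chemokines that lead them to lymph vessels and draining lymph nodes. Mature cells of this kind lose much of their capacity for uptake, raise costimulatory ligands for T cells and make chemokines that attract them. In mice prone to autoimmune diabetes, dendritic cells are among the cells that carry islet antigens to the pancreatic lymph node.

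The members were spread unevenly over the libraries of both genotypes. There were 13 members in WT 1, 90 in WT 2 and 2 in WT 3, against 4 in KO 1, 84 in KO 2 and 12 in KO 3. The libraries with most members also held the most gated B cells, 1214 in WT 2 and 1088 in KO 2, whereas WT 3 held 24 and KO 1 held 12. As a share of barcodes passing the filters, the members were 1.20% in WT 1, 2.75% in WT 2, 0.159% in WT 3, 0.323% in KO 1, 2.02% in KO 2 and 1.02% in KO 3. These shares were 1.37% ± 1.30 in WT and 1.12% ± 0.855 in KO (SD, n = 3), and the groups overlapped (difference -0.249 percentage points, 2-sided exact permutation test p = 0.8, smallest possible 0.1). The sign of the difference was not stable: it was positive without WT 2 (0.441) or without KO 1 (0.150), and 0.842 percentage points as a share of gated leukocytes. As a share of gated leukocytes (dendritic cells, macrophages, B cells and T cells), the range narrowed to between 2.41% in WT 3 and 5.80% in KO 3, with a Wilson 95% interval of 0.663% to 8.37% for the former and 3.35% to 9.86% for the latter. Such intervals cover counting error only. The count of a cell type after dispersal is a yield, and fewer cells in the islet and fewer cells recovered cannot be told apart.

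**Figure D1:**
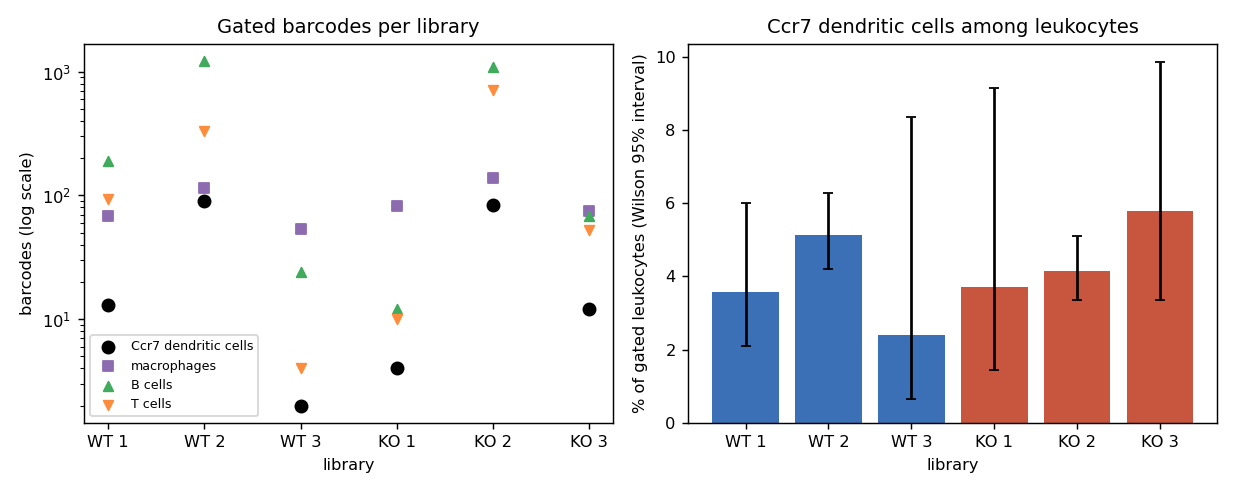
Left, barcodes per library (log axis) gated as Ccr7 dendritic cells, macrophages, B cells and T cells. Right, Ccr7 dendritic cells as a percentage of gated leukocytes, with Wilson 95% intervals, WT in blue and KO in red; the 6 intervals overlap although the numbers of members run from 2 to 90.

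The members were described by the rule genes, by genes that the rule did not use and by markers of other cells. Samsn1 and Apol7c, read below, had been listed with results of these data known and are no independent check of the label. The rule genes themselves, which chose the members and are given as a description, were found in most of them: 91.2% had a UMI of Ccr7, 95.1% of Fscn1 (an actin-bundling protein), 95.6% of Tbc1d4, 88.3% of Il4i1 (a secreted amino acid oxidase), 66.8% of Ccl22 and 61.0% of Flt3 (a cytokine receptor of the dendritic lineage). Of the 205 members, 84 had all 6 genes, 61 had 5, 32 had 4 and 28 had 3. Just inside the threshold, the 28 members with 3 genes held 474 CPM of Samsn1 and 387 CPM of Apol7c, which the rule did not use, and 154 CPM of Pecam1, an endothelial gene (CPM, UMIs of a gene scaled to the total UMIs of the summed cells). The 189 barcodes with 2 genes just outside the rule held 35.7 CPM of Samsn1, 6.29 CPM of Apol7c and 751 CPM of Pecam1. The barred genes left out another 82 barcodes, 34 of them from WT 2, 47 from KO 2 and 1 from WT 1. Median depth per member ran from 4652 UMIs in WT 3 to 12776 in WT 1.

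A small number of members held RNA of a second cell type. Of the 205 members, 9, of them 6 in WT 2 and 3 in KO 2, had UMIs of at least 3 genes of an endothelial, stellate or macrophage list, and their median depth was 28728 UMIs against 7964.5 in the other members. One of them, in WT 2, held 857 of the 874 Lyz2 UMIs and 381 Apoe UMIs, with no Ccr7 and 1 UMI each of Fscn1, Tbc1d4 and Il4i1. The summed level of the 10 macrophage markers in the members was 9.39 to 602 CPM over the 4 larger libraries, against 24862 to 33316 CPM in macrophages, and 3 of the 10 genes were at 0 (the barred gene C1qa, Adgre1 and Mrc1). Leaving the 9 mixed members out brought it to between 9.39 and 66.6 CPM, and the 7 endothelial markers from between 26.3 and 611 CPM to between 25.9 and 51.9 CPM. The 10 B cell markers summed to 0 to 85.3 CPM and the 10 T cell markers to 0 to 103 CPM. Hormone RNA was present in every part, with 74076 to 133409 CPM of 9 endocrine transcripts in the members and 23937.5 to 140009 CPM in B cells. One member barcode occurred in a second library, and pairs of libraries shared 7 to 27 barcodes in all.

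Comparisons used UMIs summed over cells within a library, in the 4 libraries with at least 5 members (WT 1, WT 2, KO 2 and KO 3). The members were set against islet macrophages, chosen by C1qa and at least 3 of 5 further markers, and against B cells, chosen by Cd79a and at least 3 of 5 further markers, with the library as a block in edgeR's quasi-likelihood test. A gene was called at a Benjamini-Hochberg false discovery rate (FDR) under 0.05 with an absolute log2 fold change above 1. Genes of either rule were not counted. Fold changes are given on the log2 scale with a standard error derived from the F statistic (n = 4 libraries), and levels are CPM of 3′ tags, which are not scaled for gene length.

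The 3 further marker genes Apol7c, Samsn1 and Zbtb46 were higher in the members than in macrophages and B cells. Apol7c, an apolipoprotein L family gene (chr15:77524852-77533316, minus strand, mm10), stood at 1643 CPM in WT 1, 977 in WT 2, 894 in KO 2 and 700 in KO 3, against 2.14 CPM ± 3.31 (SD, n = 4) in macrophages and 1.55 ± 2.88 in B cells. Every library of the members lay above every library of the other cells, with log2 fold changes of 8.77 ± 0.38 (FDR 5.81e-12) and 8.66 ± 0.52 (FDR 1.10e-08) in edgeR. Samsn1, an adaptor of lymphoid and myeloid signalling, was at 796 to 1271 CPM in the members and 19.0 ± 6.89 CPM in macrophages (5.82 ± 0.20, FDR 4.47e-13, edgeR). Zbtb46, a transcription factor of conventional dendritic cells that endothelial cells also express, was at 45.2 to 78.8 CPM, against 0.780 ± 0.551 CPM in macrophages, 0.905 ± 0.728 in B cells and 23.8 CPM in endothelial cells. These genes had been listed with results of these data known and are no independent evidence of the label. By share of cells, Apol7c had a UMI in 51.7% of members and, as a mean over the 4 libraries, in 1.20% of macrophages and 0.177% of B cells; with each cell thinned to 2000 UMIs the shares were 40.98% ± 2.05, 0.435% ± 0.870 and 0.110% ± 0.135. Median depth was 6658 to 12776 UMIs in those members, 10356 to 15277 in macrophages and 5000 to 5356.5 in B cells, so the macrophages had the lower share at the greater depth.

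**Figure D2:**
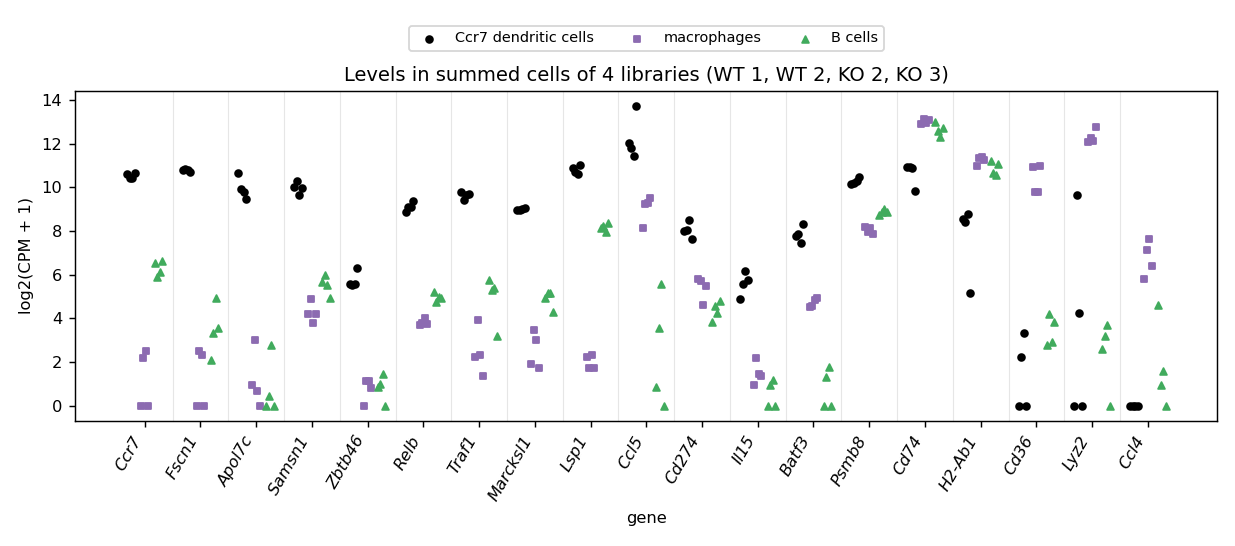
Levels, log2(CPM + 1), of 19 genes in summed cells of WT 1, WT 2, KO 2 and KO 3, 1 point per library, for Ccr7 dendritic cells (black circles), macrophages (purple squares) and B cells (green triangles). Relb, Traf1, Marcksl1 and Cd274 lie higher in the members in all 4 libraries, Cd74 and H2-Ab1 lower, and Ccl4 is at 0 in the members.

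A list of 41 genes commonly tied to mature dendritic cells was higher almost throughout. This list and the others were chosen with earlier results of these data known, so their counts are no independent evidence of the label. Against macrophages, 38 of 41 tested were called higher and none lower, with a median log2 fold change of 4.59; over all 8608 genes tested, 12.1% were called higher, 12.3% lower and the median was -0.04. Against B cells, 39 of 40 tested were called higher and none lower, with a median of 4.13, where 14.0% of 7476 genes were called higher, 13.8% lower and the median was -0.10. The 3 genes not called against macrophages were Cxcl16 (0.74 ± 0.16), Cd86 (0.64 ± 0.22) and H2-M2 (-0.16 ± 0.25), and the 1 not called against B cells was Il21r (0.78 ± 0.20). Without the 9 mixed members the counts were 37 of 40 and 39 of 40. Some of these 41 genes recur in the lists below, such as Relb, Cd80, Ccl5 and Il15, so those lists are not separate from this one. Marcks and Marcksl1, which tether the actin network to the membrane, were both called against both cell types, and Marcksl1 varied little among libraries, with 507, 495, 518 and 525 CPM in WT 1, WT 2, KO 2 and KO 3. Macrophages had 5.51 CPM ± 3.66 of Marcksl1 and B cells 29.6 ± 7.59, so that the groups did not overlap (6.47 ± 0.27 and 3.83 ± 0.17).

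Genes of the NF-κB pathway were higher in the members almost throughout. This pathway runs through paired transcription factor subunits that are held by inhibitors, and its own target genes include several of those inhibitors and subunits. Of 15 genes tested, 14 were called higher against macrophages and 13 against B cells, none was lower, and the medians were 2.87 and 1.77. Traf1, Relb, Birc2, Birc3 and Nfkb2 were already counted in the list of 41 genes above. The RelB subunit gene Relb, of the non-canonical branch, stood at 470 CPM in WT 1, 556 in WT 2, 551 in KO 2 and 656 in KO 3, against 13.1 ± 1.40 CPM in macrophages and 30.5 ± 3.99 in B cells. Neither comparator overlapped with the members, and edgeR gave 5.44 ± 0.20 (FDR 8.91e-13) and 4.02 ± 0.17 (FDR 1.08e-09). Its partner Nfkb2 was at 138 to 230 CPM and the upstream kinase gene Map3k14 at 118 to 188 CPM, and both were called higher against both cell types. Among the adaptors and ubiquitin ligases, Traf1 stood at 892, 692, 802 and 840 CPM and Birc2 at 470, 310, 287 and 254 CPM in WT 1, WT 2, KO 2 and KO 3, while macrophages had 5.85 ± 5.63 and 24.4 ± 7.30 CPM. The canonical subunit gene Rela differed less, at 52.5 to 103 CPM with 1.27 ± 0.22 over macrophages, and Nfkb1 was called against macrophages (1.30 ± 0.19) but had 0.32 ± 0.17 over B cells. Of the inhibitors, Nfkbia was at 629 to 777 CPM (2.70 ± 0.17 and 2.19 ± 0.16), Nfkbie was called in both comparisons, and so was Tnfaip3, which encodes a ubiquitin-editing enzyme that ends the signal. Bcl3, at 32.9 to 40.4 CPM, was the gene not called in either (0.97 ± 0.29 and 0.86 ± 0.24).

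For the genes of this list, called or not, the 250 bases before the transcription start were read from RefSeq (GRCm38.p6, the assembly behind mm10). They were searched on both strands for the NF-κB consensus motif. The list holds target genes of the pathway, so its share of matches describes the list and says nothing about the members. A promoter entry existed for 13 of the 15 genes, with none for Nfkb1 and Relb, and 6 of the 13 held a match (Nfkb2, Nfkbia, Nfkbie, Rel, Tnfaip3 and Traf3), against 2225 of 27025 genes with an entry overall (8.23%). The share was 7 of 30 genes with an entry (23.3%) in the list of 41 and 3 of 8 (37.5%) in a list of class I presentation genes. Apol7c had 0 matches. The starts of Nfkbia, Nfkbie, Tnfaip3 and Nfkb2 are shown 5′ to 3′ in transcript direction, with matching letters in capitals, because they belong to a subunit and 3 inhibitors that were all higher in the members. The Nfkbia window is chr12:55492648-55492897 on the minus strand, that of Nfkbie chr17:45555450-45555699 on the plus strand, that of Tnfaip3 chr10:19015411-19015660 on the minus strand and that of Nfkb2 chr19:46304487-46304736 on the plus strand.
Nfkbia: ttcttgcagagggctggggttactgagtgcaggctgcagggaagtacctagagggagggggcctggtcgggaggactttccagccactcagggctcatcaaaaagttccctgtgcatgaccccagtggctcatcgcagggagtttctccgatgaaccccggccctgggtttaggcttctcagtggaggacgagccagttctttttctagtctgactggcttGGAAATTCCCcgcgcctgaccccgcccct
Nfkbie: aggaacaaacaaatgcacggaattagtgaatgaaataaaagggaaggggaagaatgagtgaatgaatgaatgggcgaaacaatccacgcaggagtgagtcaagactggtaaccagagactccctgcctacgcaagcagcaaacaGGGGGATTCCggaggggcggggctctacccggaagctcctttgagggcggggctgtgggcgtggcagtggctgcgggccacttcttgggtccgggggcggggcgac
Tnfaip3: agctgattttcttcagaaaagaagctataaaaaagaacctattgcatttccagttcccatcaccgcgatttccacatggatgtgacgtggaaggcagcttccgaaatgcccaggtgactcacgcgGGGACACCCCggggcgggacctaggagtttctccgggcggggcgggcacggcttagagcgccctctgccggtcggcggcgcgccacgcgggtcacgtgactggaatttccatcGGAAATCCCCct
Nfkb2: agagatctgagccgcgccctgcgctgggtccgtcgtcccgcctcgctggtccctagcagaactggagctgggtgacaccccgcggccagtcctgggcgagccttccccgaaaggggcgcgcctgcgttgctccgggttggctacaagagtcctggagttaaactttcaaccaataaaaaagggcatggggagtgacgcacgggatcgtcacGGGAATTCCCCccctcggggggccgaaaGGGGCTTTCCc
In Nfkb2 the first run of capitals holds 2 overlapping matches, and the window has 3 in all. A match is a description of the letters and was not tested as a binding site.

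**Figure D3:**
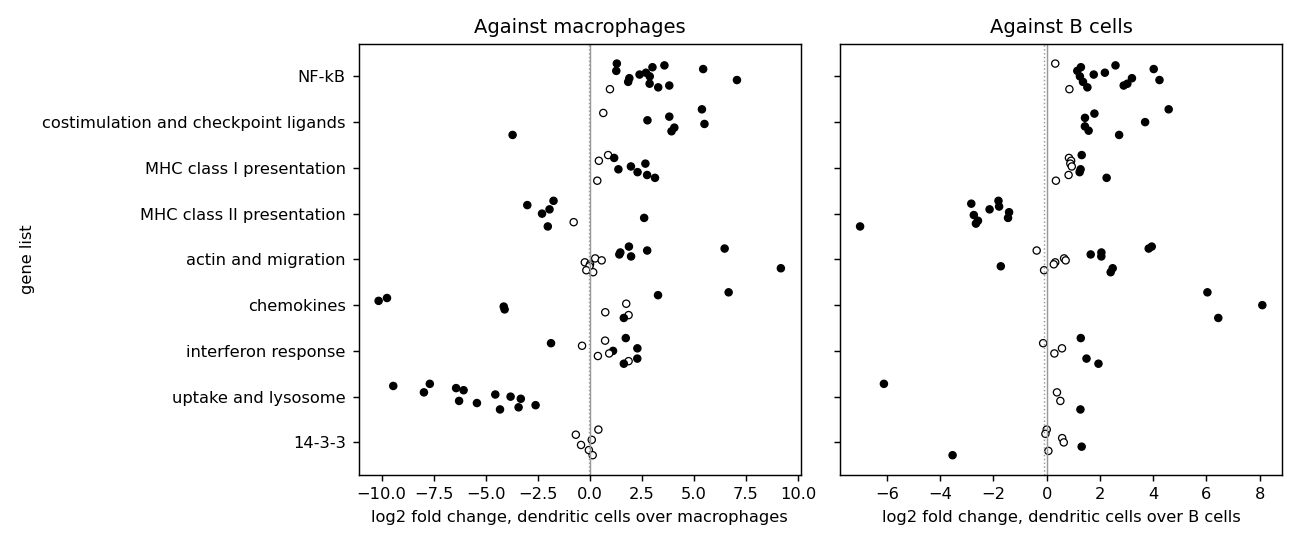
Log2 fold change of Ccr7 dendritic cells over macrophages (left) and over B cells (right) for the tested genes of 9 lists, 1 point per gene; filled points are called at FDR under 0.05 and absolute log2 fold change above 1, and the dotted line is the median of all genes tested. NF-κB genes lie above 0 in both panels, and MHC class II genes mostly below 0.

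Antigen presentation split by class. Class II genes, which load and display peptides to CD4 T cells, were lower in the members than in both other antigen-presenting cells: 5 of 7 tested were called lower than in macrophages with 1 higher (median -1.94), and 10 of 10 lower than in B cells (median -2.36). Cd74, the invariant chain, stood at 1958 CPM in WT 1, 1983 in WT 2, 1901 in KO 2 and 928 in KO 3, against 8442 ± 664 CPM in macrophages and 6573 ± 1308 in B cells. The groups did not overlap (-2.30 ± 0.23, FDR 2.74e-07, and -2.14 ± 0.19, FDR 4.05e-07, edgeR), and KO 3 with 12 members was the lowest. The class II chain gene H2-Ab1 was at 380, 345, 436 and 35.0 CPM in the same order, so KO 3 again lay below the rest. Ciita, the class II transactivator, was the exception against macrophages, at 8.75 to 65.9 CPM in the members and 7.09 ± 3.64 in macrophages (2.61 ± 0.33), although it was lower than the 141 ± 48.9 CPM of B cells.

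Class I genes, which serve CD8 T cells, pointed the other way. Of 10 tested, 7 were called higher than in macrophages and 4 higher than in B cells, and none was lower in either. The immunoproteasome subunit gene Psmb8 was at 1136, 1174, 1242 and 1426 CPM in WT 1, WT 2, KO 2 and KO 3, against 264 ± 26.5 CPM in macrophages and 466 ± 33.1 in B cells (2.29 ± 0.17 and 1.24 ± 0.13). The peptide transporter gene Tap1 was called against macrophages (2.67 ± 0.25), and Nlrc5, the class I transactivator, against both (3.13 ± 0.29 and 2.25 ± 0.28). B2m and H2-D1, at 2790 to 3756 and 1864 to 2153 CPM, were not called against macrophages (0.88 ± 0.17 and 0.43 ± 0.17), and neither was the trimming enzyme gene Erap1 (0.36 ± 0.26). Without the 9 mixed members, 7 of the 10 were called higher than in B cells.

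Ligands that T cells read were mostly higher as well, the stimulating and the restraining ones alike. Of 8 tested against macrophages 6 were called higher and 1 lower, and of 7 tested against B cells all 7 were higher. Every gene called higher here was already counted in the list of 41 genes above, so this is no separate result. The costimulator Cd80 was at 117, 97.0, 74.8 and 61.3 CPM in WT 1, WT 2, KO 2 and KO 3, against 2.10 ± 1.30 CPM in macrophages and 2.07 ± 2.19 in B cells. Cd274, which encodes the checkpoint ligand PD-L1, was at 254, 266, 359 and 201 CPM, against 43.7 ± 14.2 and 20.3 ± 5.84 (2.77 ± 0.25 and 3.70 ± 0.21). Cd200, a restraining ligand, was at 315 to 425 CPM and was called against both, though endothelial cells held 704 CPM of it. Vsir, another checkpoint gene, was the one called lower than in macrophages, with 0 to 16.5 CPM in the members against 178 ± 49.8. Cd70 and Tnfsf4, ligands of the TNF family that T cells respond to, did not pass the filter on low counts in either comparison, with 41 and 12 UMIs over all members.

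The genes of the cytoskeleton and of movement were divided between a set that was higher and a set that was level. Against macrophages 7 of 14 were called higher and none lower, and against B cells 7 were higher and Coro1a was lower. Lsp1, an actin-binding protein of leukocytes, was at 1920, 1694, 1585 and 2091 CPM in WT 1, WT 2, KO 2 and KO 3 and at 3.102 ± 0.887 CPM in macrophages (9.18 ± 0.27, FDR 1.50e-13, edgeR), with 290 ± 34.5 CPM in B cells. Actb and Tmsb4x, for β-actin and the protein that sequesters its monomers, were at 13038 to 17462 and 28590 to 37033 CPM and were called against both cell types (1.42 ± 0.19 and 1.46 ± 0.19 over macrophages). Arpc2 and Lcp1 differed from macrophages by 0.01 ± 0.16 and -0.17 ± 0.19.

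Chemokines separated the members from macrophages by kind. Ccl5, a ligand for T cells, was at 4254 CPM in WT 1, 3606 in WT 2, 2799 in KO 2 and 13484 in KO 3, against 558 ± 192 CPM in macrophages and 14.4 ± 21.7 in B cells (3.28 ± 0.29 and 8.10 ± 0.67). All 4 libraries of the members lay above the comparators, and KO 3 lay well above the other 3. Within the members it was uneven, with 80.5% of them holding a UMI and the 10% of members with most holding 58.3% of all 8221 UMIs. Ccl17, which shares its receptor with the rule gene Ccl22, was called against both but rested on few cells: 12.7% of members had a UMI, and the 4 libraries held 103, 12.2, 117 and 17.5 CPM. The inflammatory chemokines of macrophages, Ccl3 and Ccl4, had 0 UMIs in the members of the 4 libraries against 636 and 746 in macrophages, which makes them at least 75.2-fold and 88.2-fold lower (floor of 3 UMIs over the members). The levels of Cxcl9, Cxcl10 and Ccl2 came largely from single cells of WT 2, with 259 of 295, 186 of 273 and 135 of 145 UMIs in the 1 member with most.

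Receptors for other chemokines were mostly lower in the members than in the cells they were set against. Ccr2 had 0 UMIs in the 4 libraries and 70 in macrophages (at least 8.28-fold lower). Cx3cr1 had 3 UMIs against 2184 (258-fold lower, counting interval 88.3 to 1254). Cx3cr1 and Ccr1 were called lower than in macrophages, and Cxcr5 and Ccr6 lower than in B cells.

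Among cytokines, Il15, Il12b and Ebi3 were called higher and Tnf and Tgfb1 lower than in macrophages. Il15, a survival factor for CD8 T and NK cells, was at 28.2, 46.1, 71.8 and 52.5 CPM in WT 1, WT 2, KO 2 and KO 3, against 1.94 ± 1.12 CPM in macrophages (4.59 ± 0.40), and its presenting chain Il15ra was at 156 to 271 CPM (5.21 ± 0.27). Il12b, which encodes a chain shared by a pair of T cell cytokines, had 92 UMIs in the 4 libraries, 19.5% of all members carrying at least 1, and none in macrophages or B cells (at least 86.4-fold and 265-fold higher). Its partner chain Il12a had no UMI in the members, and up to 3 UMIs in their summed total could have been missed. Aldh1a2, the retinoic acid synthesis enzyme of tolerogenic dendritic cells, had 51 UMIs against none in macrophages (at least 47.9-fold higher) and was at 14.1 to 31.1 CPM.

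Genes of uptake and digestion were the mirror image. All 13 tested were called lower than in macrophages, with a median of -5.43. The cathepsin genes Ctsb and Ctss were at 149 to 522 and 296 to 455 CPM against 5593 ± 780 and 2377 ± 344 CPM (-4.32 ± 0.30 and -2.61 ± 0.18). Fcgr1, the high-affinity Fc receptor, had 0 UMIs against 527 (at least 62.3-fold lower), and the scavenger receptor Cd36 was at 0 to 8.98 CPM against 1442 ± 646. Lyz2 was at 0 CPM in WT 1 and KO 3, 18.0 in KO 2 and 811 in WT 2, the last from the 1 member named above. Against B cells 4 of these genes were tested, with Ctsb called higher and Fcgr2b lower.

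Genes that divide dendritic cells into types did not place the members in 1 of them. Cd209a and Siglech, markers of type 2 and plasmacytoid cells, had no UMI in any member, Xcr1 had 6 and Clec9a 16, and Itgam had 1. Of a list of 10 genes of conventional dendritic cells, 9 were tested in each comparison. Against macrophages 6 of the 9 were called higher, and Itgax, with 6 UMIs in the members, was called lower (-5.66 ± 0.35). Against B cells 5 were called higher, and Cd24a and Bcl11a were called lower. The transcription factor genes Batf3 and Irf8, tied to type 1 cells, were at 177 to 315 and 328 to 491 CPM, and Irf4, tied to type 2 cells, at 23.9 to 61.3 CPM. Batf3 was called higher against both cell types (3.23 ± 0.20 and 6.74 ± 0.31), Irf4 against macrophages alone (188.8-fold from 67 and 1 UMIs, counting interval 32.7 to 7568), and Irf8 in neither (0.47 ± 0.17 and 0.40 ± 0.16). Of 4 type 1 genes tested, 1 was called higher and 1 lower (Cadm1) than in macrophages, and 2 higher and 1 lower (Wdfy4) than in B cells. Of 6 type 2 genes tested against macrophages, 3 were called higher and 2 lower (Sirpa and Itgam). Of 4 tested against B cells, 2 were called higher and 1 lower (Ltb). Cbfa2t3, of the type 2 list, was called higher against both (4.15 ± 0.21 and 2.89 ± 0.17). Cell division genes were sparse, with 29 Mki67 and 50 Top2a UMIs over all members.

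By size of the difference, the 10 genes highest over macrophages and called in the same direction in all 4 libraries were Asprv1, Strip2, Gm13546, Gm47662, Bcl2l14, Lsp1, Nudt17, Apol7c, Serpinb9b and Serpinb6b. Bcl2l14, a gene of the Bcl2 family, was even among libraries, at 267 CPM ± 9.57 (SD, n = 4), with 554 UMIs against 2 in macrophages (781-fold, counting interval 215 to 6462). Serpinb6b, an inhibitor of proteases, was at 892, 1013, 932 and 919 CPM in WT 1, WT 2, KO 2 and KO 3 against 2.22 ± 1.66 CPM (8.62 ± 0.28). Asprv1 and Strip2 had 205 and 191 UMIs and none in macrophages, so they were at least 193-fold and 179-fold higher. The lowest included Cxcl14, Ccl4, C5ar1, P2ry6, Ccl3, Tgfbi, Fcgr1, Trem2 and Cxcl3. Trem2, a lipid receptor of macrophages, had 2 UMIs against 3882 (689-fold lower, counting interval 191 to 5689).

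Against B cells the 10 highest were Apol7c, Mcemp1, Dscaml1, H2-M2, Ccl5, Adgrg6, Arhgap22, Gm16685, Synpo2 and Nudt17. Adgrg6, an adhesion receptor gene, had 133 UMIs in the members and 3 in B cells (382-fold, counting interval 128 to 1878), and H2-M2, a class I-like gene, had 109 and 2 (470-fold, counting interval 127 to 3931). The 10 lowest were Gm31243, Fcer2a, Gm30211, Gimap7, Cyp4f18, Bfsp2, Mzb1, Gm30054, Iglc1 and Iglc2, which include antibody light chain genes and the low-affinity IgE receptor of B cells. Fcer2a had 0 UMIs against 1551 and was at least 59.9-fold lower.

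Leaving hormones, mt- and ribosomal protein genes aside, the most abundant transcripts of the members included Malat1, Tmsb4x, Actb, Cst3, Ccl5, Crip1, Ftl1 and B2m. Cst3, a cystatin known as a dendritic cell gene, was at 5606 to 7709 CPM against 2499 ± 330 CPM in macrophages and 341 ± 37.3 in B cells. Crip1 was at 3763 to 5723 CPM against 224 ± 12.9 and 394 ± 79.7 (4.41 ± 0.20 and 3.38 ± 0.16). The ferritin light chain gene Ftl1 ran the other way against macrophages, at 3282 to 5198 against 22873 ± 4141 CPM (-2.33 ± 0.21).

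Of the 3 further markers, Samsn1 had a UMI in 95.1% of members, Apol7c in 51.7% and Zbtb46 in 36.6%. Apol7c had a UMI in 5 of 13 members in WT 1, 52 of 90 in WT 2, 38 of 84 in KO 2 and 7 of 12 in KO 3. Over all members the median was 126 CPM, the upper quartile 1573 CPM and the 90th percentile 3379 CPM. Members with and without it were then compared within each library; this split and the genes read in it were chosen after the values were seen, so the values are a description with no test. The member sums with Apol7c held more Serpinb1a (294 against 40.4 CPM in WT 2, 452 against 21.2 in KO 2), more Aif1 (238 against 48.5 and 189 against 12.1) and more Apol10b (72.2 against 8.09 and 71.0 against 0), and each was higher in 4 of 4 libraries. Batf3, Irf8, Cbfa2t3, Ccl22, Fscn1 and Ccr7 were higher in 4 of 4 libraries too, with Batf3 at 406 against 122 CPM in WT 1, 299 against 152 in WT 2, 240 against 112 in KO 2 and 476 against 168 in KO 3. Most genes read in the split were higher in 4 of 4, with Relb, Ccl5, Ccl17, Crip1 and Epsti1 among them. The share over all genes is not given, so this outcome is not particular to the genes named. Ccl22, Fscn1 and Ccr7 are rule genes, and Apol7c itself was at 387 CPM in members with 3 rule genes and 1514 CPM in those with 6. Irf4, tied to type 2 cells, was higher in 0 of 4, at 24.7 against 38.4 CPM in WT 2 and 11.8 against 36.4 in KO 2. The list of type 2 genes did not move as 1, with Cbfa2t3 higher in 4 of 4 (534 against 255 CPM in WT 2) and Sirpa in 1 of 4. Other genes tied to type 1 cells did not follow the split, with Cadm1 and Clec9a higher in 2 of 4 libraries and Xcr1 in 1 of 4, and Cd74 was higher in 2 of 4. Median depth was 10073.5 UMIs with and 8072.5 without Apol7c in WT 2, and 8164 and 6114.5 in KO 2, while in WT 1 and KO 3 it was lower with Apol7c. All 9 mixed members lacked Apol7c, and the part of depth and mixed members in these values was not tested.

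**Figure D4:**
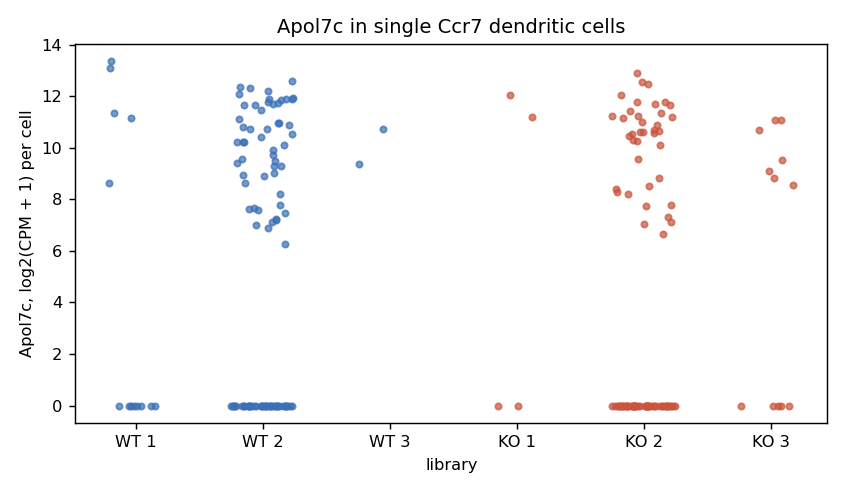
Apol7c in each of the 205 Ccr7 dendritic cells, as log2(CPM + 1) per cell, by library (WT blue, KO red; horizontal scatter is random). In WT 1, WT 2, KO 1, KO 2 and KO 3 members at 0 stand beside members that hold the gene.

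Between genotypes, no gene was called in the members. The comparison asked whether cells outside the β cell lineage differed when Ywhaz was deleted in β cells, and it rested on 2 WT and 2 KO libraries. Of 5488 genes tested with edgeR, 0 (0%) were called at an FDR under 0.05, 157 had an unadjusted p under 0.05 and the lowest FDR was 0.672, and DESeq2 also called 0. Ywhaz, which encodes 14-3-3ζ (chr15:36770770-36796929, minus strand), stood at 324 CPM in WT 1, 251 in WT 2, 233 in KO 2 and 254 in KO 3. The genotypes overlapped, at 288 CPM ± 51.4 in WT and 244 ± 14.3 in KO (SD, n = 2; 2-sided exact permutation test p = 0.667, smallest possible 0.333), and the log2 difference was -0.20 ± 0.27 in edgeR. Of the 6 14-3-3 genes tested, Ywhaz included, 0 were called, with a median log2 difference of -0.12 beside -0.0044 for all genes.

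The markers and the mature programme held no call in either direction. Apol7c was lower in both KO libraries than in both WT libraries, with a log2 difference of -0.66 ± 0.29 that was not called. Of the 40 genes of that programme tested, 27 were higher and 13 lower in KO, and their median log2 difference was 0.11. The 5 genes with the smallest unadjusted p were Sst, Prss2, mt-Nd3, Ifi27l2a and Gm10076, of which Sst is a delta cell hormone and Prss2 a digestive protease of acinar cells. Sst stood at 3310 CPM in WT 1, 3789 in WT 2, 892 in KO 2 and 254 in KO 3 (-2.52 ± 0.44, FDR 0.672, edgeR). Cells of other types held Sst as well, with 328 to 647 CPM in B cells and 247 to 4310 CPM in T cells, and the part of free hormone RNA in this value was not tested. Groups that did not overlap were found for 691 genes higher and 1017 genes lower in KO, that is 12.6% and 18.5% of those tested, beside the 0% called. Complete separation of 2 against 2 libraries gives p = 0.333 in a 2-sided exact permutation test, so it is weak evidence for any 1 gene.

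Genes of the interferon response marked 1 library and not a genotype. Isg15, a ubiquitin-like modifier made after interferon, stood at 37.6 CPM in WT 1, 54.6 in WT 2, 602 in KO 2 and 43.8 in KO 3, so that KO 2 was far above the others. The other cells of KO 2 held 295 CPM of Isg15 in T cells, 97.2 in B cells, 37.7 in macrophages and 36.8 in endothelial cells, the first and second of these being the highest of their 4 libraries. In KO 2, 50 of 84 members had a UMI of it, against 5 of 13, 33 of 90 and 5 of 12. Irf7, which amplifies interferon production, was at 97.3 CPM in KO 2 and at 4.70, 2.82 and 0 CPM in WT 1, WT 2 and KO 3, and Ifit1 at 58.4 CPM against 0 to 11.3. Against macrophages 5 of 11 genes of this list were called higher and 1 lower, and Isg15 was one of them (1.73 ± 0.53), but without KO 2 it was not called (0.29 ± 0.35); the same held against B cells (1.28 ± 0.37, and 0.36 ± 0.33 without KO 2).

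**Figure D5:**
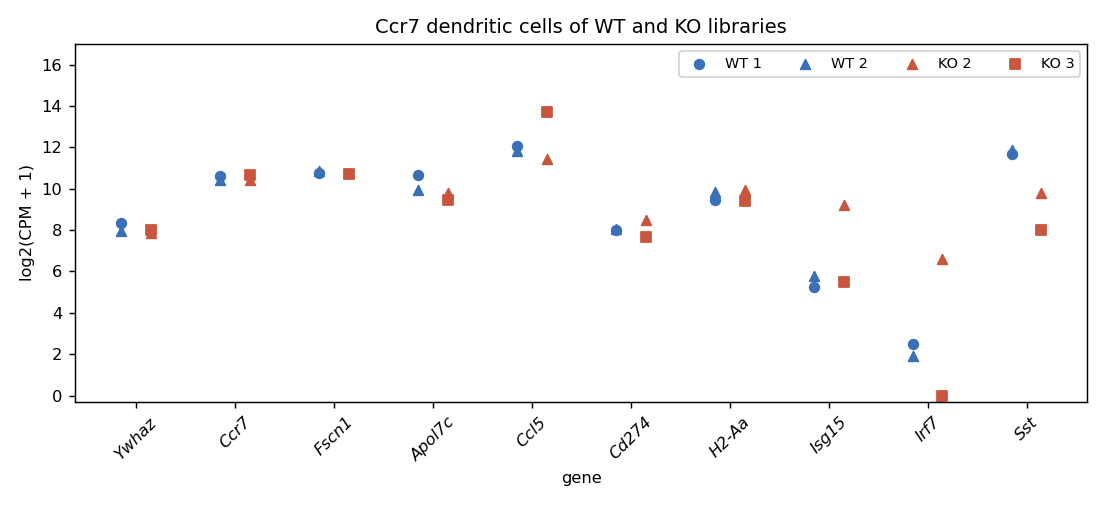
Levels, log2(CPM + 1), of 10 genes in the summed Ccr7 dendritic cells of WT 1 and WT 2 (blue) and KO 2 and KO 3 (red), 1 point per library. The genotypes overlap for Ywhaz. Isg15 and Irf7 are high in KO 2 alone, and Sst is lower in both KO libraries.

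Endothelial markers were called higher than in macrophages for 6 of 6 tested, and their summed level was 26.3 to 611 CPM in the members against 10.1 to 127 CPM in macrophages and 9735 to 12918 CPM in endothelial cells; without the mixed members it was 25.9 to 51.9 CPM. Genes of the early response to dissociation, such as Fos and Egr1, were called lower than in macrophages for 5 of 8 tested and higher than in B cells for 3 of 7. Their summed level was 753 to 1047 CPM in the members, 1759 to 2142 in macrophages and 448 to 616 in B cells. Regulators of apoptosis, a list that holds both protective and death-promoting genes, were called higher for 6 of 10 against macrophages and 5 of 9 against B cells. Those called in both were the protective genes Cflar (158 to 207 CPM), Birc2 and Birc3 and the protease inhibitors Serpinb6b and Serpinb9, while the death-promoting genes Bax and Bcl2l11 were called in neither and Bcl2 was lower than in B cells (-2.53 ± 0.34). Birc2, Birc3, Serpinb6b and Serpinb9 were already counted in the list of 41 genes above. In WT 3 and KO 1, which entered no fit, the 2 and 4 members held 15 and 40 Ccr7 UMIs and 9 and 18 Fscn1 UMIs.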

How the data were processed

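The authors deposited, for each of 6 islet libraries, a matrix of raw UMI counts per gene and barcode; the submitters' processing notes name Cell Ranger 6.0.2, Seurat and the build mm10. The matrices held 32285 genes and 74083947 to 98294915 UMIs a library. Groups came from the sample titles. The members and gene lists were chosen with earlier results of these data known. No doublet caller was run: barcodes with a UMI of a barred gene were left out, and alternatives without mixed members were run, chosen after seeing the data. The UMIs of each gated type were added up within a library in Python 3.11.15 (libraries with at least 5 members) and tested with edgeR 4.0.16 in R 4.3.3 (TMM, filterByExpr, quasi-likelihood F test, Benjamini-Hochberg), with DESeq2 1.42.0 as an alternative, and for single values with exact permutation tests in SciPy 1.17.1. A gene at 0 was given a floor of 3 UMIs over the group, and genes with 1 to 3 UMIs a 95% Clopper-Pearson interval. Genes named were those of the rule and markers, list genes by level or difference, the 10 called with the largest fold in each direction and the same sign in every library, the 20 most abundant, and, for genotype, the 5 smallest p in the absence of calls. Clec7a, Mx1 and Ccl19 had no unique symbol and were not used. The edgeR steps were tested on simulated data with 200 changed genes. Promoters came from RefSeq and gene positions from GENCODE vM21, both on GRCm38. Results for a few genes that the rule would name are not reported here.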

Additional observations from a re-analysis of the deposited data

How the results depend on the processing

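With KO against WT, edgeR with no filter on low counts called 42 genes, requiring 4 of the 6 rule genes called 1 (Sst), and leaving out 1 library at a time called 31 (without WT 2), 40 (without WT 1), 65 (without KO 3) or 71 (without KO 2), where a lone library was assumed to vary like the others. Of the genes called with a library left out, 2 (Apoe and Sst) were called in all 4 fits and 81 in 1. The other alternatives (DESeq2, RLE, hormone genes left out, at least 10 members, no UMI of other types' genes, no mixed members) called 0. Ywhaz was never called and stayed negative in all 12 alternatives. Against macrophages, thinning each cell to 2000 UMIs left 402 genes higher (370 shared with the 1040) and 491 lower (400 shared with the 1061). Against B cells, thinning left 421 higher and 408 lower, and no filter gave 1633 and 1656, thinning leaving fewer UMIs and no filter more genes by construction. Without 1 library the macrophage counts were 924 to 1169 higher and 965 to 1112 lower, and the B cell counts 846 to 1329 higher and 713 to 1134 lower. The KO minus WT share turned positive as a share of leukocytes (0.842 percentage points, p = 0.4, exact permutation test), without WT 2 (0.441) and without KO 1 (0.150), its range without 1 library being -0.855 to 0.441; with the replicate block it was -0.249 (exact sign-flip p = 0.75). The labels do not say that libraries of equal replicate number belong together, so that block is an assumption. No paired analysis was possible for genes between genotypes because the 4 libraries share 1 replicate number. The members' fits rest on 4 libraries, of which WT 1 holds 13 cells and KO 3 holds 12.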
